A study of Mus musculus with 13 samples.

Results

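The genes described here move, store and sense zinc, copper and iron. They were chosen by symbol: every gene of the Slc30a and Slc39a zinc transporter families, and 16 named genes, namely Slc31a1, Slc31a2, Atp7a, Atp7b and Atox1 for copper, Mt1, Mt2 and Mtf1 for metallothioneins and their regulator, and Tfrc, Slc11a2, Steap3, Fth1, Ftl1, Slc40a1, Aco1 and Ireb2 for iron. The rule found 40 members among the 55642 genes of the deposited count table, of which 10 belong to the Slc30a family and 14 to the Slc39a family. Of these 40, 34 had enough counts to be tested, among 16848 tested genes in all.

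Zinc, copper and iron are cofactors of many enzymes and are toxic when free, so cells keep them bound and balance entry against exit. Slc30a proteins carry zinc out of the cytosol, into vesicles or out of the cell, and Slc39a proteins carry it in; metallothioneins bind zinc and copper in the cytosol, and the transcription factor Mtf1 turns their genes on when zinc is plentiful. Iron is balanced mainly after transcription: the regulatory proteins Aco1 and Ireb2 bind a short RNA hairpin, the iron response element, which blocks translation when it lies before the coding region and steadies the message when it lies after it. In muscle, iron supplies myoglobin and the respiratory chain, copper supplies cytochrome oxidase, and zinc holds the fold of many transcription factors.

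The libraries came from C2C12, an established line of mouse myoblasts that fuse into myotubes when the serum is changed, and the study asked which transcripts depend on the RNA-binding protein YBX3. Cells received either a non-targeting siRNA (siNT), written control KD, or a pool of 4 siRNAs to YBX3, written YBX3 KD, and all were harvested 48 h after transfection. At 24 h they either stayed in medium with 10% fetal bovine serum and were harvested as proliferating myoblasts (0 day), or went into medium with 10% horse serum and were harvested as differentiating myoblasts (1 day). At 0 day each siRNA had 4 libraries, lettered A, B, C and D by replicate. At 1 day 2 libraries of control KD were sequenced, with the letters C and D, and 3 of YBX3 KD, lettered B to D.

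Values below follow the order of these letters. Total counts were 43604528, 43993711, 62261197 and 33451547 in control KD at 0 day and 52145571 and 37511347 in control KD at 1 day. In YBX3 KD they were 46843516, 71811371, 45095572 and 41868570 at 0 day and 56778578, 36819569 and 39296290 at 1 day. Abundances are given as CPM, counts scaled to a common library size after TMM correction of the library totals, and a gene passed a comparison when edgeR's Benjamini-Hochberg adjusted p was under 0.05 over the 16848 genes tested.

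The target checks the labels. Ybx3 was at 316, 311, 334 and 265 CPM in control KD at 0 day and at 347 and 294 CPM in control KD at 1 day. In YBX3 KD it was at 46.6, 40.3, 42.9 and 37.9 CPM at 0 day and 47.0, 71.5 and 28.7 CPM at 1 day. The highest of the 7 values in YBX3 KD lay below the lowest of the 6 in control KD, the log2 fold change being -2.81 (standard error 0.17, edgeR adjusted p = 5.26e-06).

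The 4 libraries with the letter D stand apart from the other 9. The first principal component of log2 CPM held 54.5% of the variance, and the D libraries scored 46.2 in control KD at 0 day, 8.76 in control KD at 1 day, 25.9 in YBX3 KD at 0 day and 61.5 in YBX3 KD at 1 day, against -24.3 to -3.97 in the others. Each group holds 1 D library among its 2 to 4. For each member given in every library, the siRNA difference is therefore given with and without these 4 libraries, and the genes that set D apart are described after the comparisons.

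Marker genes were used to look at the cell type. All 6 myoblast markers were tested (Des, Myf5, Myod1, Cdh15, Vim and Chrna1), and their summed level was 3598 to 5237 CPM over the 13 libraries with a median of 4569. Vim was the most abundant, and Myod1, a defining factor of myoblasts, was low. The sum of the 6 differentiation markers (Myog, Mymk, Ckm, Myh3, Acta1 and Tnnt1) was 4.65 to 54.1 CPM with a median of 10.1, Acta1 being the most abundant, and the highest sum was in YBX3 KD replicate C at 1 day. In control KD it was 10.1 and 4.65 CPM at 1 day, and 4.88 to 26.3 CPM at 0 day. Myog, which marks the start of differentiation, was at 0.0523 to 3.46 CPM.

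Some markers differed between the siRNAs. Myod1 was at 0.912, 1.05, 1.12 and 0.957 CPM in control KD and 2.86, 2.07, 3.04 and 1.15 CPM in YBX3 KD at 0 day and 1.80 and 0.601 CPM in control KD and 3.32, 2.44 and 1.51 CPM in YBX3 KD at 1 day. Chrna1 was at 277, 301, 298 and 241 CPM in control KD and 357, 386, 343 and 349.7 CPM in YBX3 KD at 0 day and 235 and 224 CPM in control KD and 244, 289 and 358 CPM in YBX3 KD at 1 day. At 0 day these 2 of the 16 tested markers separated the siRNA groups, both higher in YBX3 KD, beside 9.1% of all genes. In replicates A to C Myod1 alone did, and over the 13 libraries 0 did. Over both days 1 of the 16 passed edgeR, Chrna1, which rose, beside 2.34% of all genes, and 3 had an unadjusted p under 0.05 (Myod1, Chrna1 and Mymk). The log2 fold change was 0.37 (standard error 0.09, edgeR adjusted p = 0.0449) for Chrna1 and 1.11 (standard error 0.29, edgeR adjusted p = 0.0726) for Myod1.

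These calls too depended on the setting. Over both days DESeq2 and limma-voom each passed Myod1 and Chrna1, with adjusted p of 0.00776 and 0.00330 by DESeq2 and 0.00526 and 0.00235 by limma-voom. These 2 also passed edgeR without replicate D. With the letter block edgeR passed Myod1, Chrna1 and Vim, the last at -0.23. It passed 0 markers without a filter on low counts and 0 with the title number as a block. DESeq2 with the letter block, chosen after seeing the data, passed Mymk beside those 3. Leaving out 1 library at a time was also tried over both days. Chrna1 alone then passed edgeR without control KD replicate D at 0 day or YBX3 KD replicate B at 1 day. Without YBX3 KD replicate D at 1 day both Chrna1 and Myod1 passed, and without YBX3 KD replicate D at 0 day Myod1 alone. Dropping any other library left 0 markers. At 0 day edgeR and DESeq2 passed 0, each with 3 at an unadjusted p under 0.05, limma-voom passed Myod1 and Chrna1, and edgeR without replicate D passed Myod1. At 1 day edgeR, DESeq2 and limma-voom passed 0, with 1, 3 and 3 at an unadjusted p under 0.05. DESeq2 with the letter block passed Myod1 at 0 day and Mymk at 1 day. From 0 day to 1 day over both siRNAs edgeR and DESeq2 passed 0 markers, each with 2 at an unadjusted p under 0.05, while limma-voom passed Chrna1, as did edgeR without replicate D. The part of these markers in the results for the members was not tested.

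Markers of other cells were low, Pparg apart. Of 4 macrophage markers 2 were tested, with a sum of 1.84 to 3.92 CPM (median 2.84) led by Cd68, and Adgre1 had no count in any library. Of 3 endothelial markers 1 was tested, with a sum of 0.728 to 1.46 CPM (median 1.13) led by Cdh5, while Pecam1 and Kdr stayed under 10 counts. Of 3 adipocyte markers 1 was tested, and the sum was at most 30.2 CPM with a median of 16.9, nearly all of it Pparg, with Adipoq and Fabp4 under 10 counts. None of the 4 erythroid, 3 epithelial or 3 hepatocyte markers was tested. Hbb-bs, Epcam, Alb and Ttr had no count in any library, and the summed levels were at most 0.0235 CPM for the erythroid list, led by Epb42, 0.141 CPM for the epithelial list, led by Krt18, and 0.0537 CPM for the hepatocyte list, led by Apoa1. The part of any of these lists in the results below was not tested.

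Levels of different genes are compared per kilobase of the canonical transcript, as the mean ± SD over 13 libraries. The ferritin chains stood far above the rest, Ftl1 at 3506 ± 829 and Fth1 at 2185 ± 534 CPM per kilobase. Next came the zinc transporter Slc39a7 of the endoplasmic reticulum at 99.0 ± 7.02, the copper chaperone Atox1 at 80.7 ± 8.95 and the metallothionein Mt1 at 62.1 ± 19.0. The spreads of Atox1 and Mt1 overlap, and with the length of all merged exons in place of the canonical transcript Atox1 moved from rank 4 to rank 13. Slc39a1, the most abundant zinc importer of the cell surface by this measure, was at 51.4 ± 7.16, the transferrin receptor Tfrc at 35.6 ± 10.9 and Mt2 at 33.5 ± 9.65. Over the 34 tested members the median was 13.4 CPM per kilobase, against 5.44 over all tested genes with a length. By the length of all merged exons these were 6.54 and 3.01. With the 6 untested members included the median was 9.51, or 4.75 by merged exons.

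At the other end, 6 members were not tested. Slc30a8, the zinc transporter of insulin granules, had 0 counts in all 13 libraries, which allows up to 3 counts in each. Slc30a10 had 0 or 1 count, Slc30a2 and Slc39a5 0 to 3, Slc39a12 0 to 4 and Slc39a4, the zinc importer of the gut, 0 to 7. Atp7b (3 to 14 counts), Slc39a2 (2 to 16) and Slc30a3 (8 to 45) were tested at a depth that leaves wide errors.

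**Figure D1:**
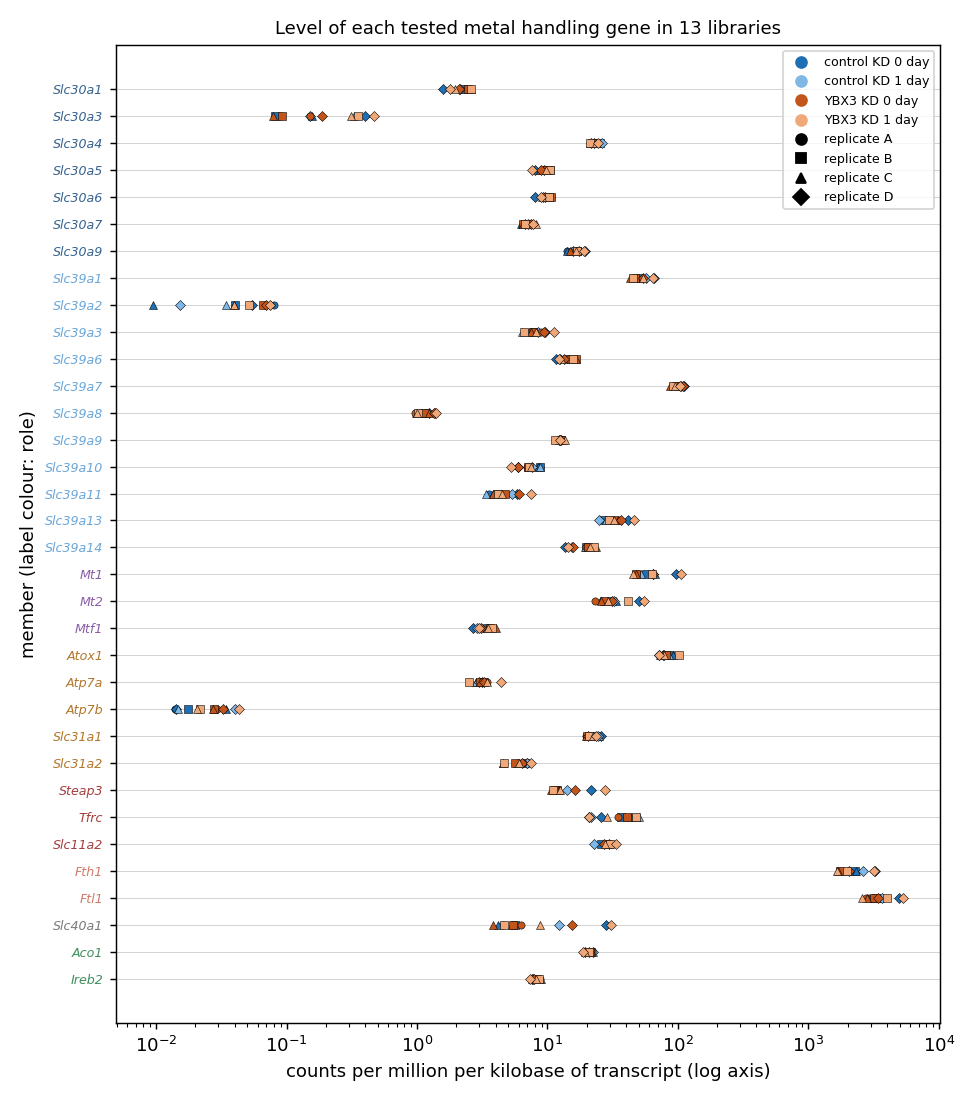
Level of each of the 34 tested members in CPM per kilobase of canonical transcript, on a log axis. Each point is a library, coloured by group and shaped by replicate letter, and label colours mark roles; the means run from 0.0259 for Atp7b to 3506 for Ftl1.

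Comparing YBX3 KD with control KD over both days, 1 of 34 tested members passed, the copper importer Slc31a1, which fell. Over all genes 394 of 16848 passed (2.34%), 218 higher and 176 lower. At an unadjusted p under 0.05 there were 2 members, Slc31a1 and Slc39a10, and 2636 genes. By direction, 17 of the 34 members had a negative log2 fold change, and their median was -0.00, against 0.00 over all tested genes. The median size of the change was 0.08 in the members and 0.16 over all tested genes. At the thresholds of the study, a fold change above 1.3 and an adjusted p under 0.001, 0 members and 19 genes (0.113%) passed edgeR. With those thresholds DESeq2 passed 0 members and 188 genes (1.12%), and limma-voom 0 members and 185 genes (1.1%).

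The number of calls depended on the tool and on replicate D. DESeq2 passed 1 member and 1179 genes (7%), and limma-voom with sample quality weights 3 members and 3088 genes (18.3%). Blocking by letter, edgeR passed 2 members and 1647 genes (9.78%), and without the 4 libraries of replicate D it passed 3 members and 2155 of 17271 genes (12.5%). Blocking DESeq2 by letter, an alternative picked once the data had been seen, passed 2 members and 2951 genes (17.5%). In every one of these counts the members were drawn from Slc31a1, Slc39a10 and Slc39a13. With single libraries left out, 1 member, Slc31a1, still passed without YBX3 KD replicate D at 1 day. Without YBX3 KD replicate D at 0 day, or B or C at 1 day, 0 members passed. Leaving out control KD replicate D at 0 day raised the count over all genes to 857 and that of members to 2. Dropping other libraries lowered it, with 0 members left: for control KD at 0 day to 207 (A), 190 (B) and 172 (C), for control KD at 1 day to 218 (C) and 200 (D), and for YBX3 KD at 0 day to 177 (A), 219 (B) and 186 (C).

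The days were also tested singly. At 0 day 0 of 34 members and 72 genes (0.427%) passed edgeR, with 1 member and 1861 genes at an unadjusted p under 0.05. The other settings passed 1 member and 510 genes by DESeq2 (3.03%), 3 members and 1782 genes by limma-voom (10.6%), 1 member and 399 genes with the letter block (2.37%) and 2 members and 948 genes without replicate D (5.49%). DESeq2 with the block, chosen after seeing the data, passed 3 members and 1332 genes (7.91%): Slc31a1, Slc39a10 and Fth1, all lower. At 1 day 0 members and 12 genes (0.0712%) passed edgeR, with 2 members, Slc39a13 and Aco1, and 1312 genes at an unadjusted p under 0.05. DESeq2 passed 0 members and 153 genes there and limma-voom 0 and 18, and without replicate D edgeR passed 0 members and 21 genes (0.122%). DESeq2 with the block passed 4 members and 2346 genes (13.9%), with Slc39a10 and Aco1 lower and Slc39a11 and Slc39a13 higher.

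The test of whether the YBX3 KD effect differed between the days passed 0 members and 0 genes (0%) by edgeR, with 1 member, Mt2, and 444 genes at an unadjusted p under 0.05. DESeq2 and limma-voom each passed 0 members and 1 gene, and edgeR without replicate D 0 members and 2 genes (0.0116%).

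Groups that do not overlap give a count without a model. No member separated the 7 YBX3 KD from the 6 control KD libraries, while 342 of 16848 genes did (2.03%). At 0 day, 4 against 4 libraries, 2 members did, Slc30a4 and Slc31a1, both lower in YBX3 KD, and 1534 genes (9.1%). In the 9 libraries of replicates A to C 3 members did, Slc39a10 and Slc31a1 lower and Slc39a13 higher, and 2244 genes (13.3%). In the 6 pairs of libraries with the same letter and day, 4 members were lower in YBX3 KD in every pair (Slc39a7, Slc39a10, Atox1 and Slc31a1) and 1343 genes (7.97%). Higher in every pair were 2 members, Slc39a11 and Mtf1, and 1575 genes (9.35%). In bulk RNA, fewer cells of a kind and less RNA per cell cannot be told apart.

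**Figure D2:**
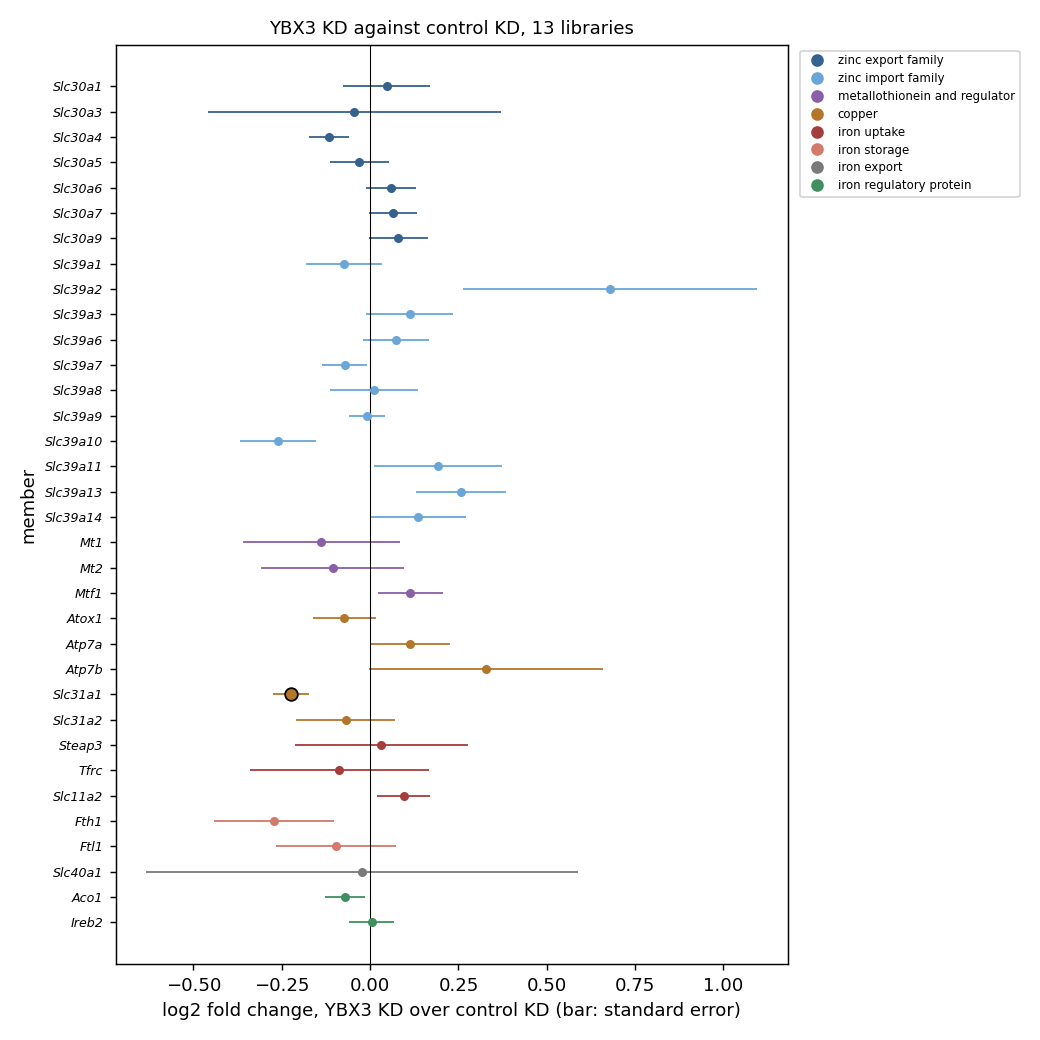
Log2 fold change of YBX3 KD over control KD from edgeR for the 34 tested members, with a bar of 1 standard error and colours for roles. The outlined point is Slc31a1 at -0.22, the member that passed; Slc39a10 is at -0.26, Slc39a13 at 0.26, and the widest bar belongs to Slc40a1.

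Among the zinc exporters 7 of 10 were tested and 0 passed edgeR on all 13 libraries in any comparison, with or without a block; 3 of the 7 were lower in YBX3 KD. Slc30a4, which loads zinc into vesicles, was at 137, 146, 130.4 and 129.6 CPM in control KD and 125, 126, 121 and 123 CPM in YBX3 KD at 0 day. At 1 day it was at 129 and 152 CPM in control KD and 121, 136 and 140.5 CPM in YBX3 KD. The 0 day YBX3 KD libraries were all lower than the 0 day control KD libraries, while the groups overlapped at 1 day, and the log2 fold change over both days was -0.12 (standard error 0.06, edgeR adjusted p = 0.358). Without replicate D it was -0.11 with an edgeR adjusted p of 0.216.

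Slc30a1, the exporter of the plasma membrane and a classic target of Mtf1, was at 12.3, 11.9, 13.5 and 8.43 CPM in control KD and 13.1, 12.9, 13.7 and 11 CPM in YBX3 KD at 0 day and at 12.5 and 11.3 CPM in control KD and 13.7, 10.3 and 9.47 CPM in YBX3 KD at 1 day. The lowest library was control KD replicate D at 0 day, and the groups overlapped. It was higher in YBX3 KD in each of the 4 pairs at 0 day and lower in each of the 2 pairs at 1 day; the log2 fold change was 0.05 (standard error 0.12, edgeR adjusted p = 0.893) over both days, and without control KD replicate D at 0 day it was -0.03. Without all 4 libraries of replicate D it was 0.03 with an edgeR adjusted p of 0.879.

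Slc30a3, known best for filling synaptic vesicles with zinc, was at 0.205, 0.182, 0.356 and 0.895 CPM in control KD and 0.339, 0.209, 0.179 and 0.423 CPM in YBX3 KD at 0 day and 0.737 and 0.340 CPM in control KD and 0.794, 0.698 and 1.05 CPM in YBX3 KD at 1 day. These are 8 to 45 counts. The 1 day libraries were mostly high, and so was control KD replicate D at 0 day. The siRNA comparison gave -0.05 (standard error 0.41, edgeR adjusted p = 0.974), and its sign turned under several settings. Without replicate D it was -0.04 with an edgeR adjusted p of 0.952. From 0 day to 1 day the log2 fold change was 1.09 (standard error 0.42, edgeR adjusted p = 1).

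The other tested exporters, which serve the secretory pathway or, for Slc30a9, the mitochondria, varied little. Slc30a5 ranged over 42.2 to 58.1 CPM, its partner Slc30a6 over 17.3 to 23.0, Slc30a7 over 56.7 to 73.1 and Slc30a9 over 81.0 to 111. Their log2 fold changes in YBX3 KD were between -0.03 and 0.08.

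Among the zinc importers 11 of 14 were tested, 4 of them lower in YBX3 KD. By edgeR on all 13 libraries 0 passed without a block in any comparison, and 1 passed with the letter block, Slc39a10. Slc39a10, an importer of the plasma membrane, was at 56.0, 56.4, 54.6 and 38.6 CPM in control KD and 45.0, 45.9, 45.3 and 38.3 CPM in YBX3 KD at 0 day. At 1 day it was at 56.3 and 49.2 CPM in control KD and 46.3, 48.0 and 34.0 CPM in YBX3 KD. Within replicates A to C the 5 values in YBX3 KD were each under the 4 in control KD. Replicate D was the lowest library of every group, and over the 13 libraries the siRNA groups overlapped. In 6 of 6 pairs the YBX3 KD library was the lower.

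Its log2 fold change was -0.26 (standard error 0.11, edgeR adjusted p = 0.255). Without the 4 libraries of replicate D it was -0.28 with an edgeR adjusted p of 0.00279, with the letter block -0.28 with 0.0202, and without control KD replicate D at 0 day -0.33 with 0.0499. By limma-voom it was -0.29 with an adjusted p of 0.00473. Its call thus differed between the settings.

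Slc39a13, a zinc transporter of the Golgi and its vesicles, was at 73.6, 67.2, 74.1 and 104 CPM in control KD and 88.9, 82.0, 88.0 and 92.8 CPM in YBX3 KD at 0 day and 70.3 and 62.0 CPM in control KD and 75.0, 81.4 and 116 CPM in YBX3 KD at 1 day. YBX3 KD was higher in 5 of 6 pairs, the exception being replicate D at 0 day, and within replicates A to C the groups did not overlap. The log2 fold change was 0.26 (standard error 0.13, edgeR adjusted p = 0.359). Without replicate D it was 0.23 with an edgeR adjusted p of 0.0221, and by limma-voom 0.26 with 0.00989. With single libraries left out it ran from 0.17 (YBX3 KD replicate D at 1 day) to 0.36 (control KD replicate D at 0 day).

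**Figure D3:**
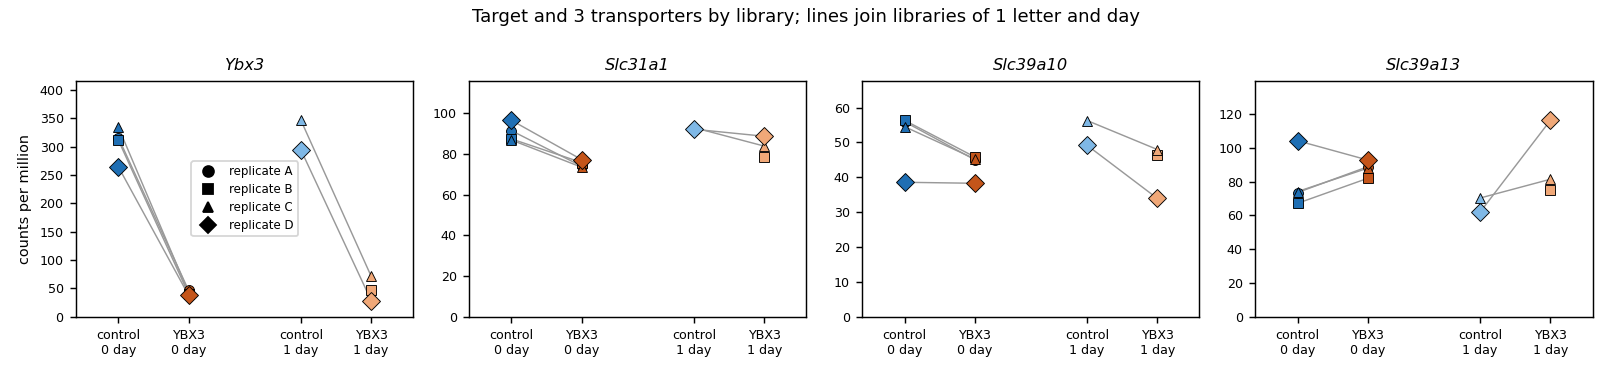
CPM of Ybx3, Slc31a1, Slc39a10 and Slc39a13 in each of 13 libraries, by siRNA and day, with lines joining libraries of the same letter and day. Replicate D is drawn as large diamonds; Ybx3 is at most 71.5 CPM in YBX3 KD and at least 265 CPM in control KD, and the lines of Slc31a1 and Slc39a10 go down in 6 of 6 pairs.

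Slc39a1 was at 111, 117, 113 and 156 CPM in control KD and 109.7, 111, 101 and 127 CPM in YBX3 KD at 0 day and 114 and 135 CPM in control KD and 108, 127 and 152 CPM in YBX3 KD at 1 day. The D libraries were high in each group, except that YBX3 KD replicate C at 1 day reached the level of YBX3 KD replicate D at 0 day. YBX3 KD was lower in each of the 4 pairs at 0 day and higher in both pairs at 1 day; over both days the log2 fold change was -0.07 (standard error 0.11, edgeR adjusted p = 0.783), and it was 0.01 without control KD replicate D at 0 day. Without all 4 libraries of replicate D it was -0.05 with an edgeR adjusted p of 0.632.

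Slc39a2, with 2 to 16 counts, was at 0.274, 0.137, 0.0323 and 0.185 CPM in control KD and 0.254, 0.223, 0.134 and 0.235 CPM in YBX3 KD at 0 day and 0.116 and 0.0523 CPM in control KD and 0.176, 0.134 and 0.256 CPM in YBX3 KD at 1 day. The groups overlapped, and the log2 fold change of 0.68 (standard error 0.42, edgeR adjusted p = 0.475) rests on few reads; without replicate D it was 0.49 with an edgeR adjusted p of 0.589. Slc39a7, which releases zinc from the endoplasmic reticulum, ranged over 201 to 256 CPM and in 6 of 6 pairs was the lower in YBX3 KD by a small amount, the log2 fold change being -0.07 (standard error 0.06, edgeR adjusted p = 0.639). Slc39a11 was higher in 6 of 6 pairs with 0.19 (standard error 0.18, edgeR adjusted p = 0.660). Slc39a7 and Slc39a11 are named after their values were seen.

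The other tested importers were Slc39a3 at 24.4 to 42.2 CPM, Slc39a6 at 57.2 to 81.6, Slc39a8 at 3.67 to 5.37, Slc39a9 at 63.6 to 75.7 and Slc39a14, which carries both zinc and iron, at 71.1 to 123. Their log2 fold changes lay between -0.01 for Slc39a9 and 0.14 for Slc39a14, and 0 of them had an unadjusted p under 0.05 in that comparison.

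Mt1 and Mt2, small cysteine-rich proteins that bind zinc and copper, are neighbours on chromosome 8 of GRCm39, Mt2 at chr8:94898819-94900207 and Mt1 at chr8:94905710-94906955, both on the plus strand. Mtf1 acts on metal response elements, whose core is TGCGCNC or TGCACNC. In promoters taken on GRCm39 from 250 bases before to 50 after the start of each canonical GENCODE transcript, and searched on both strands, at least 1 core was present in 27.5% of 21540 promoters and in 17 of 40 members, and at least 2 in 7.19% and 7 members. At least 3 were present in 2% of promoters and in 3 members, Mt1, Slc30a8 and Slc30a10; Mt2, Slc30a1, Tfrc and Atp7a had 2. A match is a description of the letters only.

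Part of the promoter of Mt1 and Mt2, the only members that encode metallothioneins, is shown for their cores: the 120 bases before the start of the canonical transcript, at chr8:94905590-94905709 for Mt1 and chr8:94899012-94899131 for Mt2, both on the plus strand of GRCm39. The canonical Mt2 transcript starts inside the span of the gene given above, which begins further upstream. Capitals mark the cores, 1 in this stretch of Mt1 and 2 in that of Mt2. Mt1 had 3 cores in the longer window, so the rest of its cores are not within the stretch shown. Whether transcription in these cells began at the annotated starts was not tested.
Mt1 promoter: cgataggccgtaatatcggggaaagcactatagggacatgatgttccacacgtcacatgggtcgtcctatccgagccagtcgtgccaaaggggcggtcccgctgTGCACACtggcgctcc
Mt2 promoter: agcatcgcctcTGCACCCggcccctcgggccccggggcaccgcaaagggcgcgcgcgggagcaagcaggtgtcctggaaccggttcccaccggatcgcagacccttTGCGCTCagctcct

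At 0 day Mt1 was at 37.7, 43.4, 51.2 and 74.2 CPM in control KD and 36.6, 36.1, 36.4 and 49.0 CPM in YBX3 KD, and at 1 day at 39.4 and 49.3 CPM in control KD and 47.9, 34.3 and 80.0 CPM in YBX3 KD. Mt2 was at 19.5, 22.9, 25.1 and 37.8 CPM in control KD and 17.3, 20.3, 19.1 and 23.2 CPM in YBX3 KD at 0 day and at 23.4 and 24.0 CPM in control KD and 31.0, 21.6 and 41.0 CPM in YBX3 KD at 1 day. For both genes replicate D was the highest library of each group, and YBX3 KD was lower in 5 of 6 pairs, the exception being replicate D at 1 day. The log2 fold change over both days was -0.14 (standard error 0.22, edgeR adjusted p = 0.809) for Mt1 and -0.11 (standard error 0.20, edgeR adjusted p = 0.842) for Mt2. Without control KD replicate D at 0 day these became 0.02 and 0.06. Without all 4 libraries of replicate D, Mt1 was at -0.18 with an edgeR adjusted p of 0.373 and Mt2 at -0.13 with an edgeR adjusted p of 0.577.

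For Mt2 the YBX3 KD effect differed between the days by 0.80 on the log2 scale (standard error 0.36, unadjusted p = 0.0487 and adjusted p = 1 from edgeR). The effect was -0.40 at 0 day and 0.40 at 1 day, and without replicate D the difference was 0.43 (unadjusted p = 0.136 and adjusted p = 1 from edgeR). Mtf1 itself ranged over 20.7 to 30.5 CPM and in 6 of 6 pairs was the higher in YBX3 KD, the log2 fold change being 0.11 (standard error 0.09, edgeR adjusted p = 0.602); it is singled out after its values were seen.

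All 5 copper genes were tested, 3 of them lower in YBX3 KD. Slc31a1, the copper importer of the plasma membrane also called Ctr1, was at 91.4, 87.3, 86.8 and 96.4 CPM in control KD and 73.9, 75.7, 73.4 and 77.1 CPM in YBX3 KD at 0 day. At 1 day it was at 92.9 and 92.1 CPM in control KD and 78.5, 83.8 and 88.6 CPM in YBX3 KD. At 0 day the 4 values in YBX3 KD were each under the 4 in control KD, and at 1 day the 3 were under both control values. Across the days the groups overlapped, because YBX3 KD replicate D at 1 day was above control KD replicates B and C at 0 day.

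In YBX3 KD Slc31a1 fell, at -0.22 (standard error 0.05, edgeR adjusted p = 0.0407) on the log2 scale, and was lower in 6 of 6 pairs. The change was -0.27 at 0 day (adjusted p = 0.117 from edgeR) and -0.14 at 1 day (adjusted p = 0.721), and their difference was 0.12 (standard error 0.10, unadjusted p = 0.257, edgeR adjusted p = 1). At 0 day the call changed with the setting: the edgeR adjusted p was 0.0363 with the letter block and 0.0328 without replicate D, and that of DESeq2 was 5.32e-05. Over both days without the 4 libraries of replicate D, Slc31a1 was at -0.24 with an adjusted p of 0.00782.

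The call was close to the threshold. Across the other settings the edgeR adjusted p was 0.128 without a filter on low counts and 0.0599 with the title number as a block. It was 0.0207 with the letter block, 0.0339 with relative log expression factors and 0.0299 with at least 10 counts in every library; DESeq2 gave 2.35e-05 and limma-voom 0.00113. With 1 library left out at a time the log2 fold change stayed between -0.24 and -0.20. The adjusted p was 0.0237 when YBX3 KD replicate D at 1 day was dropped and 0.0397 when control KD replicate D at 0 day was, and it was above 0.05 without each of the other 11. Dropping control KD at 0 day gave 0.0905 (A), 0.0759 (B) and 0.0812 (C), and control KD at 1 day 0.0748 (C) and 0.068 (D). Dropping YBX3 KD at 0 day gave 0.105 (A), 0.0837 (B), 0.0975 (C) and 0.0735 (D), and YBX3 KD at 1 day 0.0614 (B) and 0.056 (C).

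The 4 siRNAs of the YBX3 pool all match the Ybx3 transcript, and the seed of each, bases 2 to 8 of its antisense strand, can also match other messages. The listed antisense strand of the siRNA numbered 07 is not the complement of its listed sense strand, though it matches the Ybx3 transcript. For the siRNA numbered 08 the complement of the seed, GCAAGTA, occurs in the 3′ untranslated region of 6.84% of the 12933 tested genes that have one and of 6 of 34 tested members: Slc30a4, Slc31a1, Slc31a2, Slc39a6, Slc39a8 and Slc39a13. For siRNAs 05, 06 and 07 the shares were 6.72%, 4.9% and 5.96% of genes, with 2, 2 and 1 members. The antisense strand and the match in Slc31a1, on the plus strand of GRCm39 with the matched bases at chr4:62309516-62309522, are shown because Slc31a1 was the member that passed; capitals mark the seed and its match.
siRNA 08 antisense: aUACUUGCguggguuguuu
Slc31a1 match: tttacaaaGCAAGTAgaggtctt
In YBX3 KD, 3 of these 6 members were lower and 3 higher, and Slc31a1 alone of them passed; Slc39a13 also matches siRNA 05. The part of these matches in the results was not tested.

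The other copper genes did not pass. Slc31a2, a relative of Slc31a1 found on endosomes, ranged over 8.38 to 13.8 CPM, its log2 fold change being -0.07. Atox1, which hands copper to the ATPases of the Golgi, ranged over 43.2 to 62.4 CPM and was lower in 6 of 6 pairs, by as little as -0.000335 in replicate A at 0 day, with -0.07 (standard error 0.09, edgeR adjusted p = 0.739); its pairs are given because of their values. Of those ATPases, Atp7a ranged over 20.2 to 36.0 CPM with 0.11, and Atp7b, with 3 to 14 counts, gave 0.33 with a standard error of 0.33.

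For iron, the hairpins come first, since they tie the uptake, storage and export genes together. A hairpin was taken as a bulged C, 5 paired bases and the loop CAGTGN, in the untranslated regions of canonical transcripts. In the 5′ region 24 of 20691 genes had a match (0.116%), among them Fth1, Ftl1 and Slc40a1. In the 3′ region 124 of 20740 genes did (0.598%), and Tfrc, with 4, was the only gene with 2 or more. The canonical transcript of Slc11a2 held none in this form. The matches below, on GRCm39 with the loop in capitals, lie at chr16:32450037-32450066 on the plus strand for the first of Tfrc, chr19:9960096-9960125 on the plus strand for Fth1, chr7:45109202-45109231 on the minus strand for Ftl1 and chr1:45964624-45964653 on the minus strand for Slc40a1.
Tfrc 3′: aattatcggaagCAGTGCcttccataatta
Fth1 5′: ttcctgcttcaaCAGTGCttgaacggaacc
Ftl1 5′: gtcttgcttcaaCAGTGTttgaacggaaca
Slc40a1 5′: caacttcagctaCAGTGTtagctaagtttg

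Tfrc, the receptor that takes up iron-loaded transferrin, was at 218, 179, 209 and 126 CPM in control KD and 169.8, 200.5, 235 and 102 CPM in YBX3 KD at 0 day and 245 and 106 CPM in control KD and 231, 139.8 and 103 CPM in YBX3 KD at 1 day. All 4 D libraries were below the other 9, and within each day the siRNA groups overlapped. The log2 fold change in YBX3 KD was -0.09 (standard error 0.25, edgeR adjusted p = 0.903), and it became 0.11 when control KD replicate C at 1 day was dropped and 0.03 when YBX3 KD replicate D at 0 day was. Without all 4 libraries of replicate D it was -0.13 with an edgeR adjusted p of 0.633. The divalent metal transporter Slc11a2 ranged over 68.6 to 101 CPM, its log2 fold change being 0.09. Steap3, the reductase that prepares endosomal iron for transport, ranged over 59.9 to 156 CPM with 0.03, and -0.04 with an edgeR adjusted p of 0.726 without replicate D.

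The ferritin heavy chain Fth1 was at 1737, 2125, 2159 and 2995 CPM in control KD and 1618, 1633, 1569 and 1916 CPM in YBX3 KD at 0 day and 1831 and 2456 CPM in control KD and 1843, 1543 and 2960.1 CPM in YBX3 KD at 1 day. The light chain Ftl1 was at 2800.2, 3181, 3099 and 4834 CPM in control KD and 2675, 3078, 2743 and 3299 CPM in YBX3 KD at 0 day and 3409 and 3531 CPM in control KD and 3889, 2487 and 5140.5 CPM in YBX3 KD at 1 day. For both chains replicate D was the highest of each group, the siRNA groups overlapped, and YBX3 KD was lower in 5 of 6 pairs, the exception being replicate D at 1 day, as for Mt1 and Mt2. The log2 fold change was -0.27 (standard error 0.17, edgeR adjusted p = 0.483) for Fth1, and without replicate D -0.26 with an edgeR adjusted p of 0.0749. With single libraries left out it ran from -0.39 (YBX3 KD replicate D at 1 day) to -0.16 (control KD replicate D at 0 day). At 0 day DESeq2 with the letter block, chosen after seeing the data, gave Fth1 -0.40 with an adjusted p of 0.0147. For Ftl1 the log2 fold change over both days was -0.10 (standard error 0.17, edgeR adjusted p = 0.830), and 0.04 without control KD replicate D at 0 day. Without replicate D altogether it was -0.10 with an edgeR adjusted p of 0.628. Reads of near-identical copies may be shared with these genes; Fth1-ps had 118 to 594 counts and Ftl1-ps1 336 to 1021.

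Slc40a1, ferroportin, the iron exporter of the plasma membrane, ranged over 13.1 to 106 CPM, and its log2 fold change was -0.02 (standard error 0.61, edgeR adjusted p = 0.991). Without replicate D that was 0.17 with an edgeR adjusted p of 0.617. The regulatory protein Aco1 ranged over 86.1 to 103 CPM with -0.07, and Ireb2 over 43.4 to 52.8 CPM with 0.00. Aco1 at 1 day was -0.19 (unadjusted p = 0.0459, edgeR adjusted p = 0.632), lower in both pairs; this was picked out after its value was seen. DESeq2 with the letter block, also chosen after seeing the data, gave Aco1 at 1 day -0.22 with an adjusted p of 0.0146.

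The days were compared in the same way. No member passed from 0 day to 1 day over both siRNAs by edgeR, and 0 genes did (0%), with 1 member, Slc30a3, and 477 genes at an unadjusted p under 0.05. In control KD alone 0 members and 0 genes passed (0%), with 0 members and 242 genes at an unadjusted p under 0.05, and in YBX3 KD alone 0 and 0 (0%), with 3 members, Slc30a3, Mt2 and Slc31a1, and 721 genes. Over both siRNAs DESeq2 passed 0 members and 2 genes and limma-voom 1 member, Slc30a3, and 33 genes (0.196%). In control KD DESeq2 passed 0 members and 6 genes and limma-voom 0 and 0; in YBX3 KD these were 0 and 4 by DESeq2 and 0 and 11 by limma-voom. Without replicate D edgeR passed 1 member and 161 genes over both siRNAs (0.932%), the member again being Slc30a3, at 1.59 with an adjusted p of 0.0388. In control KD it passed 0 members and 4 genes without replicate D (0.0232%), and in YBX3 KD 0 members and 40 genes (0.232%).

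Slc30a3 had the largest log2 fold change with the day, on 8 to 45 counts; by limma-voom it was 1.40 with an adjusted p of 0.0488. The remaining named members had log2 fold changes from 0 day to 1 day of -0.40 for Slc39a2 to 0.31 for Mt2, none with an unadjusted p under 0.05 over both siRNAs; Slc31a1 was at 0.10 (standard error 0.05, edgeR adjusted p = 1).

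Setting replicate D against the other libraries was decided after its values were seen, and so was the choice of genes described with it. The 4 D libraries did not overlap the other 9 for 8 of 34 members, against 3162 of 16848 genes (18.8%). Higher in D were Slc39a7, Slc39a8, Slc39a11, Steap3 and Slc40a1, and lower were Slc39a14, Mtf1 and Tfrc. The median size of the log2 ratio of D over the other libraries of its group was 0.36 in the members and 0.42 over all tested genes in control KD at 0 day, 0.24 and 0.29 in control KD at 1 day, 0.22 and 0.25 in YBX3 KD at 0 day, and 0.47 and 0.43 in YBX3 KD at 1 day.

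Slc40a1 was at 15.9, 19.6, 14.3 and 97.1 CPM in control KD and 21.7, 18.9, 13.1 and 53.4 CPM in YBX3 KD at 0 day and 18.7 and 42.2 CPM in control KD and 16.1, 30.6 and 106 CPM in YBX3 KD at 1 day. The 4 D values were the highest, above 30.6 CPM in YBX3 KD replicate C at 1 day, and the log2 ratio of D over the rest of its group was 2.55 and 1.18 in control KD at 0 day and 1 day and 1.57 and 2.18 in YBX3 KD. For Tfrc the same ratios were -0.69 and -1.21 in control KD and -0.98 and -0.85 in YBX3 KD, so the exporter was high where the receptor was low. Steap3 was at 66.5, 66.7, 68.9 and 122 CPM in control KD and 67.4, 63.9, 59.9 and 91.9 CPM in YBX3 KD at 0 day and 63.4 and 80.5 CPM in control KD and 62.3, 71.1 and 156 CPM in YBX3 KD at 1 day. Slc39a14 was at 104, 102, 103 and 71.1 CPM in control KD and 103, 106, 123 and 81.2 CPM in YBX3 KD at 0 day and 100.4 and 80.0 CPM in control KD and 118, 109.7 and 74.8 CPM in YBX3 KD at 1 day, with every D library below the rest. Its siRNA difference without replicate D was 0.13 with an edgeR adjusted p of 0.211.

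Other features were also compared between D and the rest, and some overlapped. The D libraries had totals of 33451547, 37511347, 41868570 and 39296290 counts, and the others 36819569 to 71811371, so the totals overlapped. The summed level of the 6 myoblast markers, led by Vim, was 4468, 4449, 3598 and 3693 CPM in D in control KD at 0 day and 1 day and YBX3 KD at 0 day and 1 day, and 4045 to 5237 CPM in the others. The D sums in control KD lay within that range, and those in YBX3 KD below it. Of these 6, Des was higher in D, at 51.9, 45.2, 43.7 and 54.8 CPM in the same order against 15.5 to 25.9 CPM, and Myf5 was lower, at 31.3, 44.1, 43.7 and 34.2 CPM against 47.7 to 73.5 CPM. For Myod1, Cdh15, Vim and Chrna1 the D libraries overlapped the others. Of 44 tested metal genes outside the members, 5 separated D from the rest: Cp, Loxl2, Hfe and Fech were higher and Glrx5 lower, beside 18.8% of all genes. Ceruloplasmin (Cp), the copper enzyme that oxidises exported iron, was at 193, 139.7, 107 and 199.6 CPM in the same order, against 35.5 to 96.8 CPM. The part of depth and of these genes in the result was not tested.

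**Figure D4:**
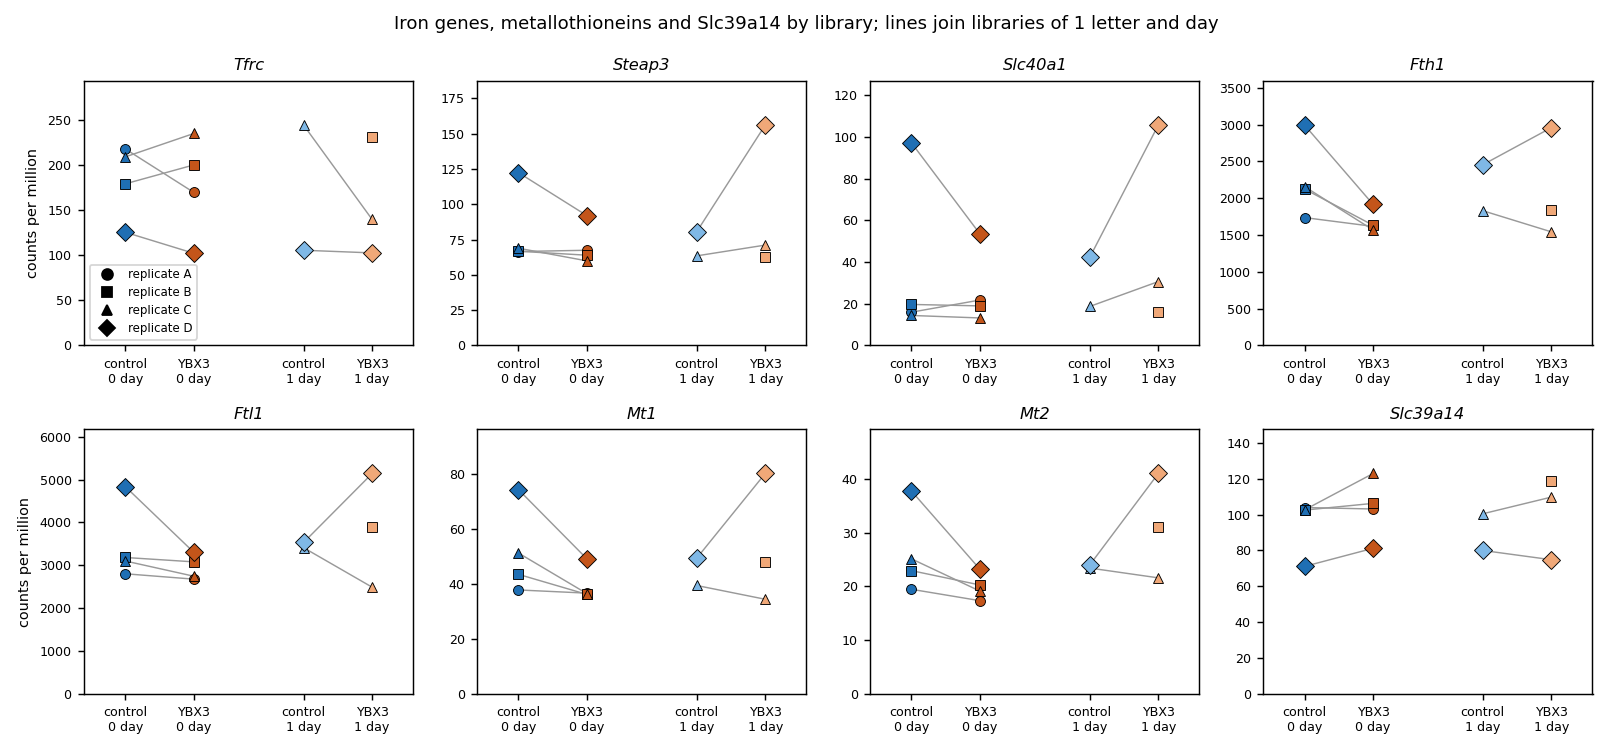
CPM of 5 iron genes, both metallothioneins and Slc39a14 in each of 13 libraries, by siRNA and day, with lines joining libraries of the same letter and day. The large diamonds are replicate D; Slc40a1 is at 42.2 to 106 CPM in D and 13.1 to 30.6 CPM elsewhere, and Tfrc at 102 to 126 CPM in D and 139.8 to 245 CPM elsewhere.

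**Figure D5:**
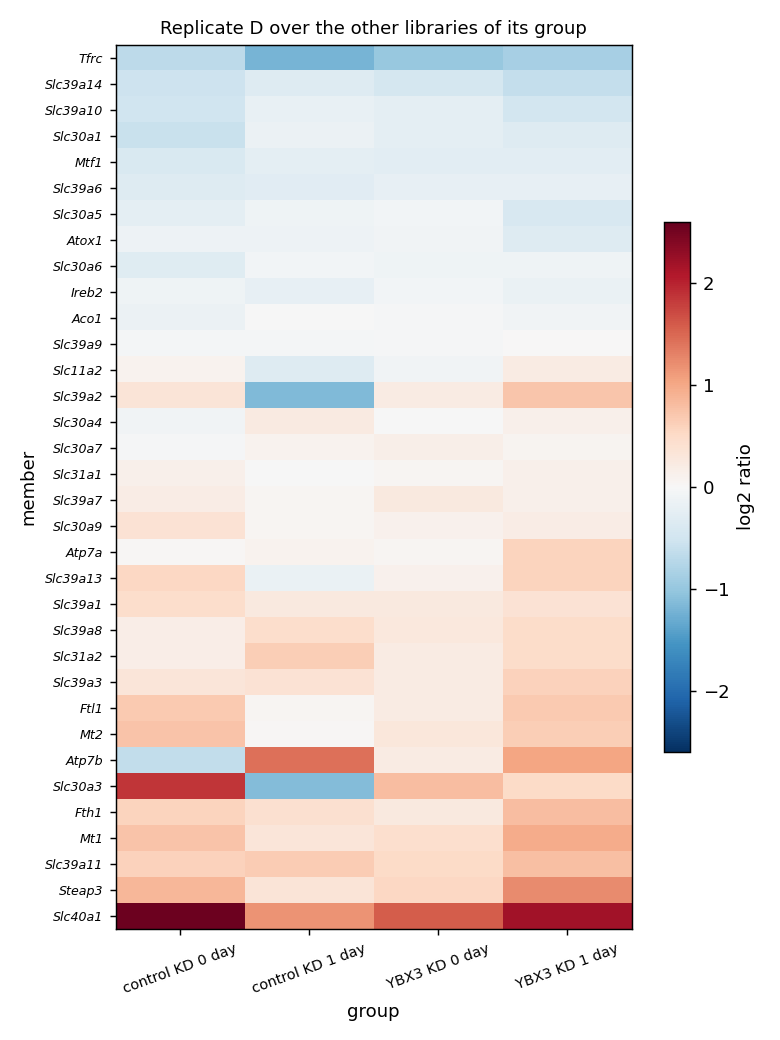
Log2 ratio of the replicate D library over the mean of the other libraries of its group, for the 34 tested members in each of the 4 groups, from blue (lower in D) to red (higher in D), ordered by the mean ratio. Tfrc is at the top, -1.21 to -0.69, and Slc40a1 at the bottom, 1.18 to 2.55.

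Outside the 40 members, 54 other genes of zinc, copper and iron handling were listed, and 44 were tested: 1 of 5 for zinc, 18 of 19 for copper and 25 of 30 for iron. Comparing YBX3 KD with control KD over both days, 1 rose and 1 fell among the 44, beside 2.34% of all genes. At an unadjusted p under 0.05 there were 7 (15.9%), beside 15.6% of all genes. Of the 44, Hephl1 alone separated the YBX3 KD from the control KD libraries over the 13, beside 2.03% of all genes. It was at 0.141 to 0.537 CPM in YBX3 KD and 0 to 0.123 CPM in control KD, on 0 to 21 counts. In the other 6 comparisons 0 passed edgeR, with 0 to 6 at an unadjusted p under 0.05. Over both days DESeq2 passed 2 higher and 2 lower of the 44 (Hephl1, Pcbp2, Slc25a37 and Sod1), beside 7% of all genes. There limma-voom passed 6 higher and 4 lower, beside 18.3%. At 0 day DESeq2 passed 2, beside 3.03% of all genes, and limma-voom 6, beside 10.6%. At 1 day DESeq2 passed 1, beside 153 genes of 16848, and limma-voom 0, beside 18. In the remaining 4 comparisons both passed 0 of the 44. The one that rose was Slc25a37, mitoferrin, which brings iron into mitochondria, at 156, 146, 148 and 160.2 CPM in control KD and 192, 159, 198 and 180.4 CPM in YBX3 KD at 0 day and 125 and 122 CPM in control KD and 166, 159 and 200.3 CPM in YBX3 KD at 1 day. The groups overlapped only through control KD replicate D at 0 day and YBX3 KD replicates B at 0 day and C at 1 day, and the log2 fold change was 0.35 (standard error 0.08, edgeR adjusted p = 0.0352).

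This call for Slc25a37 was also close to the threshold. The adjusted p was 0.0710 by edgeR without a filter on low counts, 0.0448 with the title number as a block, 0.00114 by DESeq2 and 0.00182 by limma-voom. By edgeR it was 0.0181 with the letter block, 0.0164 without replicate D, 0.0368 with relative log expression factors and 0.0229 with at least 10 counts in every library. With single libraries left out the edgeR value was under 0.05 only without control KD replicate D at 0 day, YBX3 KD replicate B at 0 day or YBX3 KD replicate D at 1 day. Dropping control KD at 0 day gave 0.0581 (A), 0.0852 (B) and 0.0826 (C), and control KD at 1 day 0.107 (C) and 0.101 (D). Dropping YBX3 KD at 0 day gave 0.0867 (A), 0.0917 (C) and 0.0527 (D), and YBX3 KD at 1 day 0.0543 (B) and 0.0512 (C).

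Pcbp2, an RNA-binding protein that also delivers iron to ferritin, fell. It was at 727, 672, 761 and 812 CPM in control KD and 600.1, 623, 617 and 583 CPM in YBX3 KD at 0 day and 748 and 757 CPM in control KD and 692, 618 and 701 CPM in YBX3 KD at 1 day. At 0 day the groups did not overlap, at 1 day the 3 values in YBX3 KD were under both in control KD, and the log2 fold change was -0.25 (standard error 0.06, edgeR adjusted p = 0.0444).

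For Pcbp2 too the call depended on the setting. The adjusted p was 0.140 by edgeR without a filter on low counts, 0.0572 with the title number as a block, 0.000623 by DESeq2 and 0.00226 by limma-voom. By edgeR it was 0.0315 with the letter block, 0.0340 without replicate D, 0.0430 with relative log expression factors and 0.0443 with at least 10 counts in every library. With single libraries left out the edgeR value was under 0.05 only without control KD replicate D at 0 day or YBX3 KD replicate B or D at 1 day. For control KD at 0 day it became 0.0961 (A), 0.0562 (B) and 0.109 (C), and control KD at 1 day 0.0831 (C) and 0.0794 (D). For YBX3 KD at 0 day it became 0.122 (A), 0.0910 (B), 0.1002 (C) and 0.0937 (D), and YBX3 KD at 1 day 0.0850 (C).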

How the data were processed

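RNA was sequenced from 13 libraries of C2C12 cells. The authors quantified transcripts with Salmon on GRCm39 and deposited estimated counts for each gene, without normalization; the values are whole, so rounding to whole numbers before the tests changed none. From these, CPM, log2 fold changes and p-values were computed here. Ensembl identifiers were joined to GENCODE M39, which matched 54969 of 55642 genes.

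In R 4.3.3, edgeR 4.0.16 kept genes by filterByExpr on the 4 groups, scaled by TMM and tested by quasi-likelihood with Benjamini-Hochberg adjustment over all 16848 genes. The siRNA and the day were terms of the comparisons over both. The others are contrasts of 1 coefficient per group. Standard errors given with edgeR were derived from the test, as the size of the log2 fold change over the square root of its F statistic. Alternatives were DESeq2 1.42.0, limma-voom 3.58.1 weighting samples by quality, scaling by relative log expression, no filter, at least 10 counts in every library, a block for the letter or for the title number, fits on a single day, the thresholds of the study, no replicate D and each library left out. DESeq2 with the letter block was added after seeing the data. The procedure was also run on simulated counts, whose outcome is not given here and is no part of the results. Sequences and tables were handled in Python 3.11.15 with numpy 2.4.6 and pandas 2.3.3.

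The letters and title numbers of the labels differ at 1 day. Residuals of log2 CPM after removal of group means had a correlation over 0.1 in 16 of 16 pairs of libraries with the same letter, 11 of 46 with other letters and 8 of 16 with the same title number. Every pair of a D library with a library of another letter had a negative correlation. Among replicates A to C the values ran from 0.117 to 0.358 with the same letter and from -0.062 to 0.419 with other letters. Outside D the letters thus set the pairs apart less clearly. Replicates are named by letter.

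Members and lists were chosen with earlier results of these data known. Named with values in every library are each member that passed any of the 7 comparisons, the 6 with the smallest p over both days for the siRNAs and the 6 for the days, and Mt1, Mt2, Slc30a1, Tfrc, Fth1 and Ftl1. Slc40a1, Steap3 and Slc39a14 were added after their values were seen. The marker lists and the list of other metal genes are given whole in the results. The reference files used here held no table of protein sequences, so none is shown.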

Additional observations from a re-analysis of the deposited data

Results flagged for a closer look

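In the 4 libraries of a 0 day group, the gap of the highest or lowest value to its nearest neighbour was set against the whole range, for 34 members in 2 groups. In 8 of 68 sets (11.8%) it exceeded the critical value of Dixon's ratio, beside 12.4% of the sets over all tested genes, so the members' share was that of the background. Chance gives about 1 in 20. Replicate D was the library in 7 of the 8, and in 79.2% of those over all tested genes.

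In control KD at 0 day, replicate D was the highest for Slc40a1 (97.1 CPM against 14.3 to 19.6 CPM, a gap of 0.936 of the range). It was also the highest for Steap3, the endosomal reductase (122 CPM against 66.5 to 68.9 CPM, 0.958), and for Slc39a1 (156 CPM against 111 to 117 CPM, 0.867). The same library was the lowest for Slc39a14 (71.1 CPM against 102 to 104 CPM, 0.956) and for Slc39a10 (38.6 CPM against 54.6 to 56.4 CPM, 0.898). In YBX3 KD at 0 day, replicate D was the lowest for Slc39a10 (38.3 CPM against 45.0 to 45.9 CPM, 0.892) and the highest for Mt1 (49.0 CPM against 36.1 to 36.6 CPM, 0.963). For Atp7b, control KD replicate C at 0 day was the highest (0.226 CPM against 0.0912 to 0.114 CPM, 0.833), on 3 to 14 counts.

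For 2 of 34 members (5.88%) every pair of libraries at 0 day went against every pair at 1 day, beside 749 of 16848 genes (4.45%). In YBX3 KD Slc30a1 was higher in 4 of 4 pairs at 0 day but lower in 2 of 2 at 1 day, and the effects differed by -0.23 on the log2 scale. Slc39a1 was lower in 4 of 4 and higher in 2 of 2, with a difference of 0.20. The edgeR test of that difference gave an unadjusted p of 0.394 and 0.387, and an adjusted p of 1 for both.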

How the results depend on the processing

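Of 230 log2 differences under 9 settings other than a single library left out, 212 kept their direction and their side of the threshold. The count of members past adjusted p under 0.05 over both days was 1 and moved to 0 at the thresholds of the study, without a filter and with the title number as a block, to 2 with the letter block or DESeq2 with that block, and to 3 by limma-voom or without replicate D. With single libraries left out it was 0 to 2. At 0 day it moved from 0 to 1 by DESeq2 or the letter block, 2 without replicate D, and 3 by limma-voom or DESeq2 with the block. At 1 day it moved to 4 by DESeq2 with the block. From 0 day to 1 day it moved to 1 by limma-voom or without replicate D. The letter block changed no other count of members. Its changes to the marker calls are given in the results. The median level of 9.51 CPM per kilobase became 4.75 with merged exon length and 9.03 without replicate D.

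The siRNA difference of Slc30a3, -0.05, became 0.16 by limma-voom, 0.06 with the letter block, 0.05 with the title number and 0.04 by DESeq2 with the block. From 0 day to 1 day, Slc30a4 became -0.01, Fth1 -0.01 and Tfrc 0.03 without replicate D, and Slc39a13 0.03 with the title number. With single libraries left out, the siRNA difference ran from -0.29 to 0.38 for Slc30a3, -0.21 to 0.06 for Mt2, -0.20 to 0.04 for Ftl1, -0.14 to 0.01 for Slc39a1, -0.39 to -0.16 for Fth1, 0.17 to 0.36 for Slc39a13, 0.45 to 0.99 for Slc39a2, -0.29 to 0.02 for Mt1, -0.03 to 0.09 for Slc30a1 and -0.22 to 0.11 for Tfrc. The day difference ran from -0.03 to 0.27 for Fth1, -0.08 to 0.30 for Mt1 and -0.35 to 0.03 for Tfrc. It also ran from -0.59 to -0.23 for Slc39a2 and from 0.13 to 0.42 for Mt2. For each of these the cause was not tested.

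The 2 control KD libraries at 1 day limit the comparisons of that day. Slc39a2, Slc30a3 and Atp7b rest on few counts, and small differences in them could not be measured at this depth. Transcript counts do not measure protein, metal or transport.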
